A study of Mus musculus with 12 samples.

Results

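The genes described here surround agouti on mouse chromosome 2. They are agouti itself, whose symbol is a, its neighbours Raly, Eif2s2, Ahcy and Itch, and the more distant Dynlrb1, Pigu, Ncoa6, Trpc4ap and Commd7. A transcript cluster, the set of probes that the array summarises as 1 value, was taken as a member where its only gene symbol was 1 of these 10. This gave 10 clusters out of 35556, with 1 cluster each for 8 genes and 2 for Eif2s2. Ahcy, the enzyme that hydrolyses S-adenosylhomocysteine, had no such cluster, because its 3 clusters also carry the symbol Gm4737, and it has no value here.

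RNA was profiled with Affymetrix arrays from KK-Ay mice, an obese mouse model of type 2 diabetes (T2D) that carries the A-y allele, and from control mice. There were 12 arrays in 6 groups of 2, named here by their titles. The T2D groups were 6Y, 16Y and 42Y, and the control groups were 1 (replicates 3 and 5), 6K and 42WKK (replicates A and B). The groups 42Y and 42WKK are taken as KK-Ay and KK mice of 42 weeks, the age that the methods state, and no source used here gives the age of the other mice or ties the controls titled 1 to a strain. The division into T2D and control is that of the series design text. The sample characteristics instead call 6K T2D and 42Y control, and the agouti signal below was low in both 6K arrays and high in both 42Y arrays. Agouti is itself compared between these arms below, so its signal is no separate support for the division. No source says that each array came from a mouse of its own, so the spread between arrays may be partly technical. The sample records name blood and the methods name liver. Array medians over 10 hepatocyte genes, such as Alb and Apoa1, were 13.08 to 13.22 in T2D arrays and 13.06 to 13.25 in control arrays on the log2 scale. Those over 10 leukocyte genes, such as Ptprc and Cd3e, were 4.12 to 4.90 in T2D arrays and 4.01 to 4.38 in control arrays, near the median of all clusters, which was 4.74 to 4.88. In tissue, fewer cells of a type and less RNA per cell cannot be told apart.

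Agouti is a secreted ligand that blocks melanocortin receptors. In wild mice it is made in the skin, where it turns the hair pigment cell to yellow pigment. In the A-y allele a deletion removes the coding part of Raly and the Eif2s2 gene and places agouti under the Raly promoter, so that agouti is made in nearly every tissue. Mice with the allele on both chromosomes die as embryos, and KK-Ay mice therefore keep 1 intact chromosome. Such mice are yellow, and because the ligand also reaches receptors in the brain that restrain feeding, they become obese and diabetic.

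The promoters of Raly, Eif2s2 and a are shown because agouti is read from the Raly promoter in the A-y allele and the deletion involves these genes. They are the reference sequence before each gene's RefSeq start, 250 bases in GRCm38.p6, 5′ to 3′ on the gene's strand. Capitals mark the GC box, spelled GGGCGG or CCGCCC. The stretch shown for Raly is chr2:154790860-154791109 on the plus strand. That for Eif2s2 is chr2:154892907-154893156 on the minus strand, and that for a is chr2:155013320-155013569 on the plus strand.
Raly: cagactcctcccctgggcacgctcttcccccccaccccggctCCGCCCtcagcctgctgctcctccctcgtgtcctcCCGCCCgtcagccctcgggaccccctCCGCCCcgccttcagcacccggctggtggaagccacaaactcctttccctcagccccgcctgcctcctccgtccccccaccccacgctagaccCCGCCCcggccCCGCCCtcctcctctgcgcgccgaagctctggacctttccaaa
Eif2s2: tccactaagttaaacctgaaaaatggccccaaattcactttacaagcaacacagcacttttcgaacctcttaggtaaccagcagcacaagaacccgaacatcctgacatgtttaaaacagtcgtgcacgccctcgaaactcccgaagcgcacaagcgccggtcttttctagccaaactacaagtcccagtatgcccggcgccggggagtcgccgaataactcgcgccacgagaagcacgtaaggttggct
a: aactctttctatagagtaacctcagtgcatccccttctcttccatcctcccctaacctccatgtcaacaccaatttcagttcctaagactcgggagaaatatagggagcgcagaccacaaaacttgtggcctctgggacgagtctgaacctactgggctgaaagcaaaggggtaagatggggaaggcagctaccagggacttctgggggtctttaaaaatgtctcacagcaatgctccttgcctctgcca
The Raly promoter held 5 GC boxes and 72.8% G or C. The promoter before the RefSeq start of a held 0 GC boxes and 50% G or C, and that of Eif2s2 held 0 GC boxes and 51.6% G or C. Over all 32851 promoters of this length, 32.7% held a GC box and the median was 52.4% G or C. A match describes the letters and is no evidence of a bound factor. Of the 10 listed genes 9 had a promoter entry.

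Agouti was higher in every T2D array than in every control array. The a cluster (10477595) had log2 signals of 7.06 and 6.78 in 6Y, 6.89 and 6.81 in 16Y and 6.96 and 6.96 in 42Y. The control arrays had 5.51 and 5.21 in group 1, 5.29 and 5.20 in 6K and 5.22 and 5.34 in 42WKK. The lowest T2D array lay 1.27 above the highest control array. The mean was 6.91 ± 0.106 in T2D arrays and 5.30 ± 0.118 in control arrays (SD, n = 6 each). The difference was 1.61 on the log2 scale (SE 0.08), which is 3.06-fold with a 95% interval from 2.71 to 3.46. Its adjusted p in limma, with Benjamini-Hochberg adjustment over all clusters, was 0.00044, and its unadjusted p was rank 1 of 35556 clusters. By size the difference was rank 9.

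Raly, an RNA-binding protein of the hnRNP family, went the other way. Cluster 10477583 had log2 signals of 6.70 and 6.81 in 6Y, 6.78 and 6.59 in 16Y and 6.65 and 6.77 in 42Y, against 7.21 and 7.47 in group 1, 7.61 and 7.73 in 6K and 7.49 and 7.25 in 42WKK. All 6 T2D arrays lay below all 6 control arrays, with a gap of 0.40. The T2D mean was 6.72 ± 0.0855 and the control mean 7.46 ± 0.202 (SD, n = 6 each). The difference of -0.74 (SE 0.08) is a ratio of 0.60 with a 95% interval from 0.53 to 0.68, with an adjusted p of 0.021 in limma. The call was lost when any 1 of 9 of the 12 arrays was left out, among them both arrays of groups 1, 16Y, 6Y and 42WKK and replicate 1 of 6K. Without 1 array the difference stayed between -0.79 and -0.70.

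Eif2s2 encodes the beta subunit of eIF2, the factor that brings the initiator tRNA to the ribosome. It was lower in T2D by both of its clusters, which are annotated with the same accessions. Cluster 10578683 had log2 signals of 7.67 and 7.51 in 6Y, 7.20 and 7.26 in 16Y and 7.38 and 7.50 in 42Y, against 8.15 and 8.16 in group 1, 8.45 and 8.53 in 6K and 8.88 and 8.75 in 42WKK. The arms were 0.48 apart. The difference was -1.07 (SE 0.06, adjusted p 0.00073 in limma), a ratio of 0.48 with a 95% interval from 0.43 to 0.52. Cluster 10488806 had 6.24 and 6.00 in 6Y, 5.68 and 5.74 in 16Y and 5.78 and 5.74 in 42Y, against 6.37 and 6.35 in group 1, 6.72 and 6.83 in 6K and 6.92 and 6.87 in 42WKK. Here the 6Y arrays came close to the controls of group 1, and the gap was 0.10. The difference was -0.81 (SE 0.06, adjusted p 0.0044 in limma), a ratio of 0.57 with a 95% interval from 0.52 to 0.63. The sources used here do not say which stretch the probes of each cluster match, so signal from a near-identical copy of the gene cannot be told apart from that of Eif2s2.

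**Figure D1:**
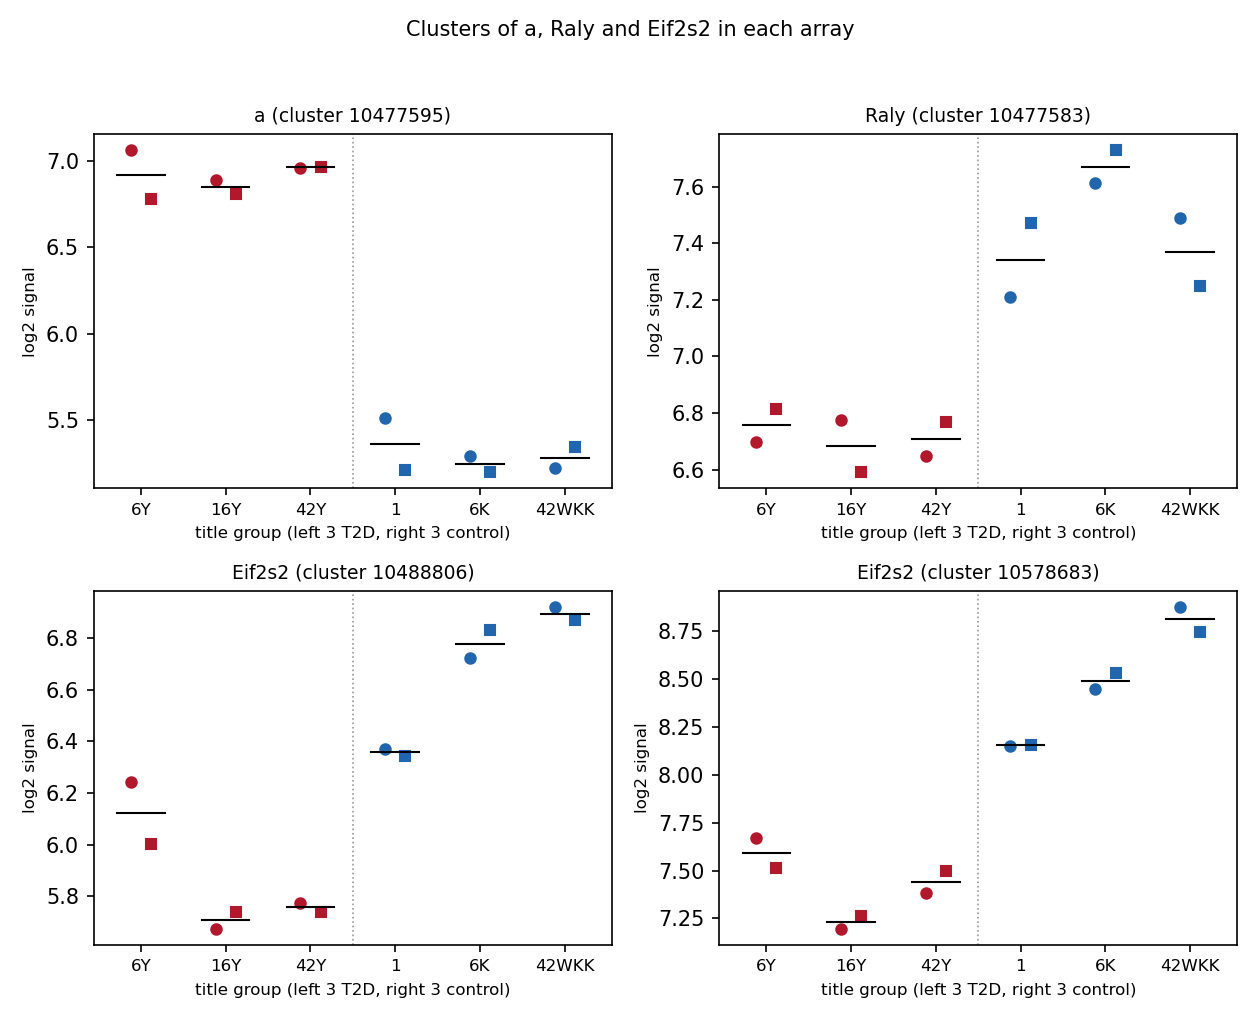
Log2 signal (y axis) of the clusters of a, Raly and Eif2s2 in each array by title group (x axis), with T2D groups in red on the left and control groups in blue on the right. Circles and squares are the replicates of a group and the black lines are group means, and in each panel the 6 T2D arrays lie on one side of the 6 control arrays, with the narrowest gap, 0.10, in Eif2s2 cluster 10488806.

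Thus 4 of the 10 clusters, those of a, Raly and Eif2s2, were called in T2D against control, where 74 of all 35556 clusters (0.208%) were called. The same 4 clusters had all T2D arrays on one side of all control arrays, against 115 of 35556 clusters (0.323%). In each of these 4 clusters the exact two-sided permutation p of 6 against 6 arrays was 0.00216, the smallest that the 924 splits allow, which follows from the arms being apart. This test takes the 12 arrays as exchangeable, although they are 6 groups of 2. The median size of the difference over all clusters was 0.09.

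The neighbours on the other side of agouti did not separate the arms. Itch, a ubiquitin ligase of the Nedd4 family, is the next gene after agouti with a cluster of its own symbol. Its cluster (10477604) had log2 signals with a lowest, median and highest value of 8.79, 9.01 and 9.33 in T2D arrays, against 8.60, 8.92 and 9.08 in control arrays. The difference was 0.18 (SE 0.07, adjusted p 0.34 in limma), and 3 of the 6 T2D arrays lay above every control array. Dynlrb1, a light chain of the dynein motor, had 10.33, 10.45 and 10.60 in T2D arrays, against 10.39, 10.56 and 10.76 in control arrays, a difference of -0.09 (SE 0.07). Ncoa6, a coactivator of nuclear receptors, had 7.09, 7.34 and 7.52 in T2D arrays, against 7.10, 7.29 and 7.61 in control arrays, a difference of 0.02 (SE 0.10). The arms overlapped in all of these.

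Pigu is a subunit of the complex that attaches GPI anchors to proteins. It had 7.31, 7.72 and 7.87 in T2D arrays, against 7.62, 7.71 and 8.10 in control arrays, and the lowest T2D values were both from 42Y. Trpc4ap, an adaptor of a cullin ubiquitin ligase, had 9.07, 9.24 and 9.39 in T2D arrays, against 9.22, 9.32 and 9.59 in control arrays. Commd7, a COMM domain protein, lies on the Raly side of agouti. It had 5.82, 5.94 and 6.47 in T2D arrays, against 6.09, 6.21 and 6.27 in control arrays. Thus 4 T2D arrays lay below every control array and 1 above. The differences were -0.15 (SE 0.06) for Pigu, -0.13 (SE 0.06) for Trpc4ap and -0.15 (SE 0.06) for Commd7. Their adjusted p in limma were 0.37, 0.39 and 0.39. For the 6 clusters with overlapping arms the exact permutation p lay between 0.132 and 0.807. The 95% intervals of the 6 differences reached no further than -0.30 and 0.35. Unadjusted p in limma were 0.029 for Itch, 0.037 for Pigu, 0.043 for Trpc4ap and 0.045 for Commd7. They were 0.2 for Dynlrb1 and 0.82 for Ncoa6. Of all 10 listed clusters 8 had an unadjusted p under 0.05 in limma, against 4370 of all 35556 clusters (12.3%).

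**Figure D2:**
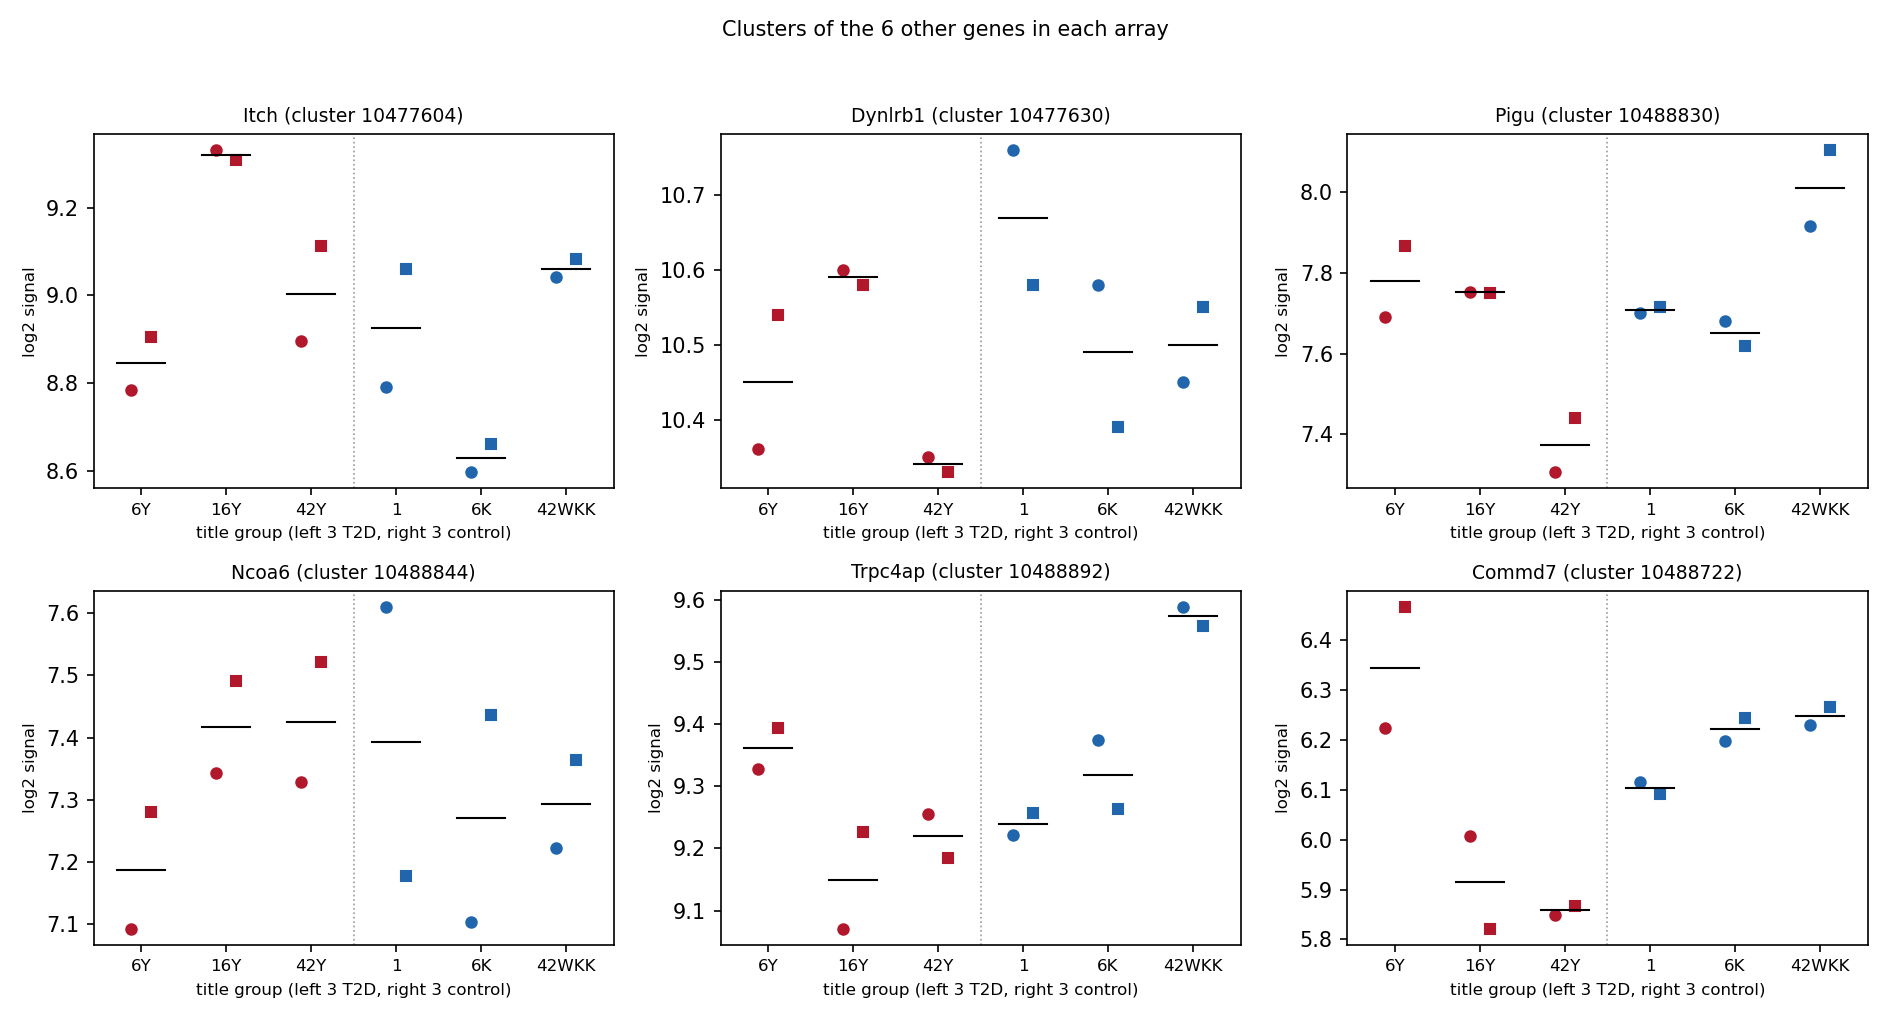
Log2 signal (y axis) of the 6 other clusters in each array by title group (x axis), with T2D groups in red on the left and control groups in blue on the right. Circles and squares are replicates and black lines are group means, and the arms overlap in every panel, with the 42Y arrays lowest for Pigu, at 7.31 and 7.44.

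No other gene close to agouti separated the arms. Within 2 Mb of agouti, 81 genes were measured by 87 clusters. When a, Raly and Eif2s2 were set aside, 0 of the remaining 83 clusters were called in T2D against control in limma and 0 had the arms apart, while 24 (28.9%) had an unadjusted p under 0.05, against 4370 of all 35556 clusters (12.3%). Their differences ran from -0.42 for Acss2, the cytosolic acetyl-CoA synthetase, to 0.31 for Eif6, an initiation factor of the large ribosomal subunit. On the Raly side the nearest measured gene was Chmp4b, a subunit of the membrane-cutting ESCRT-III complex. Chmp4b had log2 signals of 8.72 to 8.93 in T2D arrays, against 8.66 to 8.96 in control arrays. Map1lc3a, an autophagosome protein on the other side, had 6.73 to 7.28 in T2D arrays, against 6.86 to 7.12 in control arrays. Within 5 Mb, 169 genes beside a, Raly and Eif2s2 were measured by 181 clusters. Of these clusters 2 had the arms apart, against 115 of all 35556 clusters (0.323%). They were those of Slc52a3, a riboflavin transporter, lower in T2D, and Snhg17, a host gene of small nucleolar RNAs, higher in T2D. Of the 181 clusters 1 was called in T2D against control, that of Snhg17 (adjusted p 0.024 in limma).

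**Figure D3:**
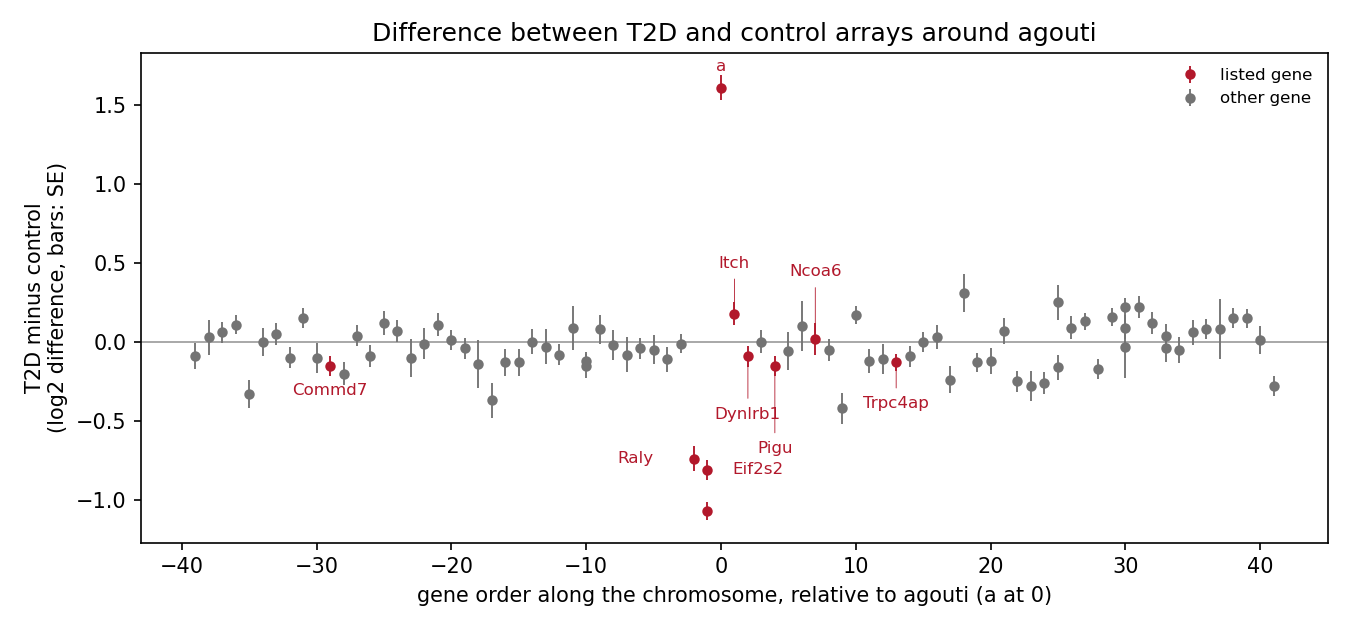
Difference between T2D and control arrays (y axis, log2 scale, bars are SE) for each cluster annotated to a gene within 2 Mb of agouti, by gene order along the chromosome relative to agouti at 0 (x axis). Listed genes are red and other genes grey, and beside a at 1.61, Raly at -0.74 and Eif2s2 at -0.81 and -1.07 all clusters lie between -0.42 and 0.31.

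At 42 weeks, the comparison of 42Y with 42WKK arrays called a, both Eif2s2 clusters and Pigu. In this comparison 659 of 35556 clusters (1.85%) were called in limma. Agouti was 1.68 higher (SE 0.13, adjusted p 0.0019), and Eif2s2 was 1.37 lower by cluster 10578683 (difference -1.37, SE 0.10, adjusted p 0.0017) and 1.14 lower by cluster 10488806 (difference -1.14, SE 0.11, adjusted p 0.0038). Pigu had 7.31 and 7.44 in 42Y arrays, against 7.92 and 8.10 in 42WKK arrays, a difference of -0.64 (SE 0.11, adjusted p 0.032). The Pigu call was lost when any 1 of 10 of the 12 arrays was left out, the 6Y arrays being the exceptions, and without 1 array the difference lay between -0.73 and -0.54. Raly was at -0.66 (SE 0.14) and just missed the threshold, with an adjusted p of 0.053. Commd7 was at -0.39 (adjusted p 0.13) and Trpc4ap at -0.35 (adjusted p 0.12). Among the other genes within 2 Mb, Acss2 (-0.89, adjusted p 0.044) and Ndrg3 (-0.55, adjusted p 0.045) were lower in 42Y.

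The comparison of 6Y with 6K called agouti alone. Of 35556 clusters 1 (0.00281%) passed in limma, and it was the a cluster, with a difference of 1.68 (SE 0.13, adjusted p 0.032). An unadjusted p under 0.05 was reached by 1878 clusters, 4 of them of the listed genes. Eif2s2 had differences of -0.90 (adjusted p 0.26) and -0.65 (adjusted p 0.52), and Raly had -0.91 (adjusted p 0.52). Pigu had 7.69 and 7.87 in 6Y arrays, against 7.68 and 7.62 in 6K arrays, a difference of 0.13 (SE 0.11). Leaving out 1 array ended the agouti call in 10 of 12 cases, the 2 arrays of group 1 being the exceptions, with differences between 1.53 and 1.81.

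The estimates for agouti were close in both pairs of groups. The 42Y-42WKK difference minus the 6Y-6K difference was 0.01 for a, with a 95% interval from -0.43 to 0.44. For Pigu it was -0.76 (95% interval -1.12 to -0.41, adjusted p 0.11 in limma), for Eif2s2 -0.48 and -0.47 (adjusted p 0.23 each) and for Commd7 -0.51 (adjusted p 0.23). In this contrast 0 of the 10 clusters passed in limma and 5 had an unadjusted p under 0.05, where 51 of all clusters (0.143%) passed and 4707 had an unadjusted p under 0.05. It is therefore not shown by this fit that Pigu differed between the pairs. Over clusters with a mean log2 signal of at least 6 alone, 1 listed cluster passed in this contrast.

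**Figure D4:**
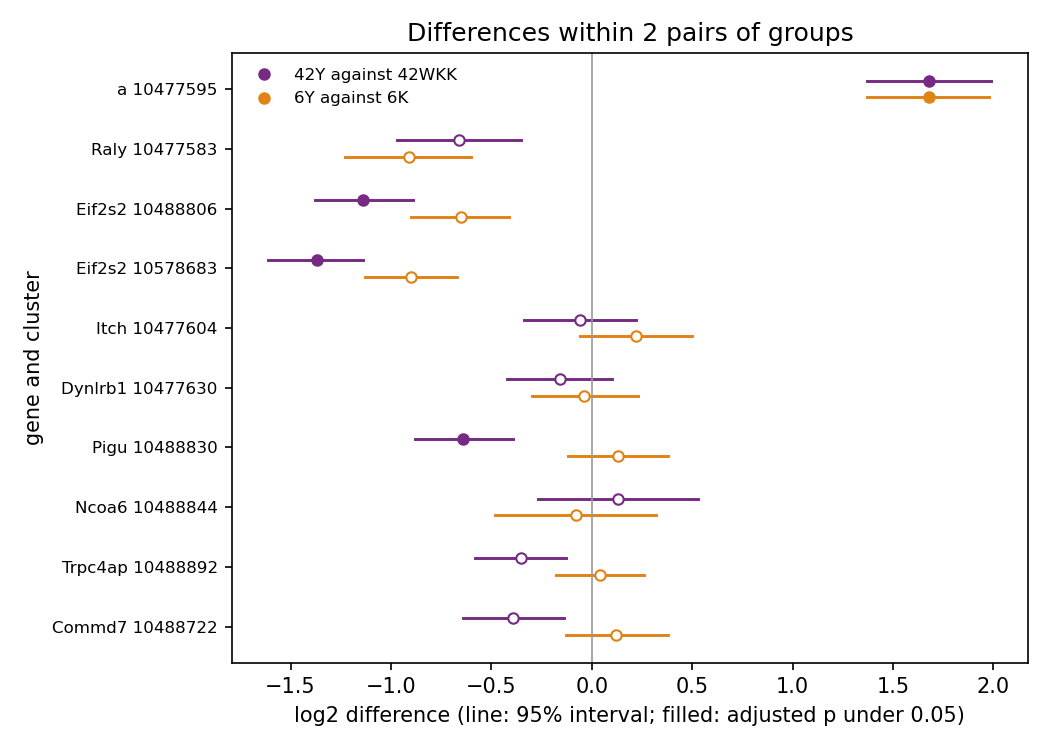
Log2 difference (x axis) with its 95% interval for each listed cluster (y axis) in 42Y against 42WKK (purple) and 6Y against 6K (orange). Filled points had an adjusted p under 0.05, and the agouti differences coincide at 1.68 while those of Pigu lie at -0.64 and 0.13.

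Within the T2D arm agouti was level, with means of 6.92 in 6Y, 6.85 in 16Y and 6.96 in 42Y (adjusted p 0.84 in limma's F test). The control means were 5.36 in group 1, 5.25 in 6K and 5.28 in 42WKK. Eif2s2 was less even in the control arm. Cluster 10578683 averaged 8.15 in group 1, 8.49 in 6K and 8.81 in 42WKK (adjusted p 0.029 in limma's F test), and cluster 10488806 averaged 6.36, 6.78 and 6.89 in the same groups (adjusted p 0.048). These 2 of the 10 clusters were called among the control groups, where 1557 of all clusters (4.38%) were called. Both calls were lost when an array of group 1, 6K, 16Y or 42WKK was left out. Leaving out any other array kept at most 1 listed call. Among the T2D groups 0 of the 10 clusters passed in limma, against 847 of all clusters (2.38%). An unadjusted p under 0.05 was reached there by 5 of the 10, against 7221 of all clusters (20.3%).

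Over the 12 arrays Pearson's r with agouti was -0.95 for Raly, -0.92 and -0.88 for the Eif2s2 clusters, 0.38 for Itch and -0.48 for Trpc4ap. These values describe 12 points that share 2 arms. Among 11601 clusters of other genes with 1 symbol and a mean log2 signal of at least 5, the highest r was that of Chac1, a glutathione-degrading enzyme, at 0.94. Chac1 ran from 6.76 to 7.27 in T2D arrays, against 6.27 to 6.53 in control arrays (difference 0.65, SE 0.06, adjusted p 0.010 in limma). The next were Snhg17 at 0.91, Zfp451 at 0.88, Lilra5 at 0.86 and Foxa3, a forkhead transcription factor of liver, at 0.85. Snhg17 differed by 0.64 and Foxa3 by 0.71 (adjusted p 0.024 each), and Zfp451 at 0.21 and Lilra5 at 0.32 did not pass. The lowest r were those of Nop16 and Acyp1 at -0.88, the 2 clusters of Glo1, the glyoxalase I that detoxifies methylglyoxal, at -0.88 and -0.85, and Shank2 at -0.82. These 5 clusters had differences from -0.33 for Shank2 to -0.20 for Acyp1, and none of the 5 passed in limma (adjusted p 0.13 to 0.19). The arms were apart in the 5 clusters at either end, against 115 of all 35556 clusters (0.323%). As the clusters were picked for following agouti, this is no separate result. Of the genes with the highest and lowest r, Chac1 and Snhg17 lie on chromosome 2.

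The genes that act with the listed ones showed no call. In the 10 lists of such genes 81 of 85 genes were measured, and 0 were called in T2D against control in limma, with differences from -0.39 to 0.64. An unadjusted p under 0.05 was reached by 16 (19.8%), against 12.3% of all clusters. In 42Y against 42WKK 0 were called, and 24 (29.6%) had an unadjusted p under 0.05, against 17.3% of all clusters. The 10 measured genes of the melanocortin system had a median difference of -0.04, against -0.01 over all genes. Pomc, the precursor of the melanocortins, was at -0.11, Mc1r, the receptor that agouti blocks in pigment cells, at -0.25 and Mc2r at 0.06. The 7 measured partners of Eif2s2 in eIF2 and its exchange factor had a median of -0.04, with the gamma subunit gene Eif2s3x at 0.19, Eif2b1 at -0.04 and Eif2b2 at -0.17. The hnRNP relatives of Raly, Ralyl and Hnrnpc, were both at 0.03. In the methionine cycle around Ahcy, 14 genes had a median of 0.01, with the S-adenosylmethionine synthetase gene Mat1a at 0.37 (adjusted p 0.089). The 4 partners of Pigu had a median of 0.07 in T2D against control and of 0.09 in 42Y against 42WKK, with Pigk at -0.22, Gpaa1 at 0.27 and Pigs at 0.19 in 42Y against 42WKK. The 12 measured partners of Commd7 had a median of -0.02 in T2D against control and of -0.32 in 42Y against 42WKK, where the median over all genes was 0.00.

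The cell type markers, hepatocyte genes included, were also without a call. Of 31 measured markers in 5 lists 0 were called in T2D against control in limma, with 4 (12.9%) at an unadjusted p under 0.05, and 0 had the arms apart. In 42Y against 42WKK 0 were called, with 6 (19.4%) at an unadjusted p under 0.05. The widest differences in that pair were those of the neutrophil genes S100a9 at 1.20 (adjusted p 0.086) and S100a8 at 1.13 (adjusted p 0.21) and of the lipid droplet gene Cidec at -1.31 (adjusted p 0.21), named after their values were seen. Their part in the differences of Pigu and Eif2s2 at 42 weeks was not tested. Array medians over 5 melanocyte genes were 3.51 to 3.98 in T2D arrays and 3.59 to 4.07 in control arrays, and those over 4 adipocyte genes 4.14 to 4.37 in T2D arrays and 4.18 to 4.49 in control arrays. The 2 measured erythroid genes, Alas2 and Slc4a1, differed by -0.13 and 0.05.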

How the data were processed

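Expression was measured in 12 arrays, 2 in each of 6 groups. Per transcript cluster, the authors deposited log2 values that were made in Affymetrix Expression Console (4.0 in the methods) with the robust multichip analysis (sketch) algorithm. The methods name a mouse exon array, the cluster annotation is that of a mouse gene array, and its genome build was not given in the sources used here. Symbols were updated by gene identifier for 21698 of 21789 clusters with 1 symbol. Gene order and names came from GRCm38.p6.

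The deposited log2 values were fitted as 6 group means by lmFit and eBayes of limma 3.58.1 under R 4.3.3, with Benjamini-Hochberg adjustment over 35556 clusters and a threshold of 0.05. T2D against control was the mean of 3 T2D group means minus that of 3 control group means. Before use, the fitting step was tested on simulated data. Precision is limited by the number of arrays, which carry no read depth.

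The members and gene lists were chosen with earlier results of these data known. Named were all members, genes within 2 Mb of agouti that were called or had the arms apart, the 5 clusters with the highest and the 5 with the lowest correlation with agouti, and of each list the called genes and up to 3 others. The nearest genes, the genes at the ends of the range within 2 Mb, those called at 42 weeks and those within 5 Mb were named after their values were seen. The clusters of Ahcy carry 2 symbols and were not used. Alternatives covered normalization, a filter at a mean log2 of 6, a variance trend, clusters with 1 symbol, other arms and subsets of arrays, the ANOVA the study names, each array left out and the replicate number as a block.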

Additional observations from a re-analysis of the deposited data

How the results depend on the processing

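In T2D against control, agouti and Eif2s2 cluster 10578683 kept their calls in all 20 alternatives. Agouti stayed between 1.56 and 1.66 and the cluster between -1.09 and -1.04, except with the arms of the sample characteristics, where they were at 0.47 (adjusted p 0.037) and -0.37 (adjusted p 0.035). Cluster 10488806 lost it in 2 and Raly in 11, without both 6K arrays among them (-0.64). With the arms of the sample characteristics Raly was at -0.10, and the sign turned for Itch (-0.07), Dynlrb1 (0.01), Pigu (0.03), Ncoa6 (-0.08) and Commd7 (0.09), all without a call. These arms exchange 6K and 42Y, so the values are differences between other sets of arrays, and no further cause was tested. Each result below is a count of clusters called. T2D against control had 74, with 548 at a mean log2 of at least 6, 212 with a variance trend, 293 over clusters with 1 symbol, 46 without the 6K arrays, 334 with the arms of the sample characteristics (2 listed clusters, against 4) and 3 with 2 group means. 42Y against 42WKK had 659, with 1721, 1113 and 1000 under the first 3 of these alternatives, 0 on the 4 arrays alone (0 listed) and, by the ANOVA, 0 adjusted (0 listed) and 3817 unadjusted (7 listed). With the filter 7 listed clusters were called. 6Y against 6K had 1, with 0 after quantile normalization, 2 with the filter and 2 over clusters with 1 symbol (2 listed in each, the added cluster being Eif2s2 10578683), and 0 on the 4 arrays alone. The contrast between the pairs had 51, with 622 (1 listed), 202 and 208. Among the T2D groups there were 847, with 2476 (5 listed), 1675 and 1705 (1 listed). Among the control groups there were 1557, with 2584 after centring on array medians, 4112 (5 listed), 2840 and 2350, and after quantile normalization 0 listed clusters.

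Without 1 array, T2D against control had 6 (without 42WKK replicate B) to 89 (without 42Y replicate 2) calls, with 3 to 4 listed. 42Y against 42WKK had 52 (without 42WKK replicate A) to 500, with 3 to 4 listed. 6Y against 6K had 0 to 1, with 0 to 1 listed. The contrast between the pairs had 3 (without 6K replicate 2) to 110, with 0 listed. The T2D groups had 131 (without 6Y replicate 1) to 860, with 0 listed, and the control groups 39 (without 42WKK replicate A) to 1532, with 0 to 1 listed. Ncoa6 turned sign between -0.05 and 0.10 in T2D against control and between -0.25 and 0.08 in 6Y against 6K. In 6Y against 6K so did Dynlrb1 (-0.13 to 0.06) and Trpc4ap (-0.01 to 0.10), and in 42Y against 42WKK Itch (-0.17 to 0.05). None of these was called.

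Replicate numbers 1 and 2 are shared by 6K, 6Y, 16Y and 42Y. Over all clusters, deviations of same-numbered arrays correlated at -0.036 to 0.055. As this check covers all clusters together, it cannot show whether some of them share an effect of the replicate number. With the replicate block on these 8 arrays 6Y against 6K had 0 calls (0 listed), and the same arrays without the block, an alternative chosen after seeing the data, also had 0 (0 listed). Signal over background is not given per array, and with 2 arrays a group small differences cannot be resolved.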
